A study of Mus musculus with 3 samples.

Results

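Phototransduction is the cascade by which photoreceptors of the retina turn light into an electrical signal. In rods and cones, light-activated opsin switches on the G protein transducin, transducin switches on the cyclic GMP phosphodiesterase PDE6, and the fall in cyclic GMP closes the cyclic nucleotide-gated channel of the outer segment. Arrestin and recoverin quench or tune the opsin step, peripherin-2 and ROM1 shape the rims of the outer segment discs, and the homeobox factor CRX drives much of this gene set. The enamel organ, the epithelium that makes tooth enamel and contains the ameloblasts, is not known for this cascade. The genes were chosen by their role in phototransduction, and also from their counts in the Stim1 cKO library, which were known to be higher than in the controls. The values of that contrast are therefore a description and were not tested. Of the 10 named genes, 7 were found among the 20937 gene symbols of the count table: Gnat1, Gnat2, Sag, Pde6a, Cngb1, Prph2 and Rom1. Pde6b, Rcvrn and Crx were not listed and were not analysed here. The table holds no count below 1, so it leaves out any gene that had no read in 1 or more libraries. The rod exchanger gene Slc24a1 was left out by the selection rule.

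Mice aged 4 weeks gave 3 RNAseq libraries of the entire enamel organ of the incisor, 1 per genotype. Stim1 cKO mice (cKO) carried AmelX-iCre and a pair of floxed Stim1 alleles (AmelX-iCre+; Stim1 fl/fl), Stim1 HT mice (HT) carried AmelX-iCre and 1 floxed allele (AmelX-iCre+; Stim1 fl/wt), and Stim1 Ctrl mice (Ctrl) had a pair of floxed alleles without Cre (AmelX-iCre-; Stim1 fl/fl). The Cre recombinase is driven by the amelogenin promoter, so deletion of Stim1, the calcium sensor of the endoplasmic reticulum, is directed at ameloblasts and not at the other cells of the dissected tissue. The methods name male mice only. Mice of the same genotype were not compared, since each genotype has a single library. Hence no genotype difference could be tested with replicates, and the intervals given here cover counting error only.

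The libraries held 20216507 to 28265960 counts. Levels are given as CPM, counts relative to the library size scaled by edgeR's TMM factors, and 3 counts, the floor used for ratios over lists, equal 0.117 to 0.152 CPM. Stim1 was at 72.8 CPM in cKO, 129 CPM in HT and 186 CPM in Ctrl. The tissue label was checked on 10 ameloblast genes, all of which were listed. Their summed level was 4521 CPM in cKO, 31560 CPM in HT and 23280 CPM in Ctrl. Amelx (amelogenin) and Ambn (ameloblastin) made up most of this sum, with Amelx at 2065, 20020 and 14090 CPM in that order. The 10 genes did not move together, since 3 (Amelx, Ambn and Enam) were over 2-fold lower in cKO than in both controls, 4 (Odam, Odaph, Slc24a4 and Wdr72) were higher and 3 were neither. In bulk tissue, fewer cells of a type and less RNA per cell cannot be told apart.

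Gnat1 encodes the alpha subunit of rod transducin, and Gnat2 encodes that of cone transducin. Gnat1, on chromosome 9 from 107674474 to 107679712 on the minus strand (GENCODE M21, GRCm38), had 4294 counts in cKO, 2 in HT and 5 in Ctrl. These counts equalled 177 CPM, 0.102 CPM and 0.194 CPM. Gnat1 was thus abundant in cKO and at or just above the limit of detection in both controls. The ratio of cKO to HT was 1747 (95% counting interval 483 to 14430), and that to Ctrl was 913 (391 to 2813). Gnat2, on chromosome 3 from 108092789 to 108101432 on the plus strand, had 103 counts in cKO, 13 in HT and 11 in Ctrl. The Gnat2 ratios were 6.45 (3.61 to 12.5) to HT and 9.95 (5.34 to 20.6) to Ctrl. The cone subunit was therefore the rarer of the pair in cKO but not in the controls. Per kb of exon, Gnat1 was at 41.2 times the level of Gnat2 in cKO (33.9 to 50.6), at 0.152 times in HT (0.0167 to 0.672) and at 0.449 times in Ctrl (0.122 to 1.40).

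Pde6a encodes the alpha subunit of rod PDE6, the effector that transducin activates. On chromosome 18 from 61220315 to 61289924 on the plus strand, it had 1025 counts in cKO, 4 in HT and 9 in Ctrl, or 42.3, 0.203 and 0.350 CPM. The ratio to Ctrl was 121 (63.5 to 266). In both controls, Pde6a was below 1% of its cKO level, at 0.480% in HT and 0.826% in Ctrl.

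Sag encodes the rod arrestin, which binds activated opsin and stops its signal. On chromosome 1 from 87803680 to 87845158 on the plus strand, it had 2628 counts in cKO, 23 in HT and 12 in Ctrl. The ratio was 93.0 (61.8 to 147) to HT and 233 (133 to 451) to Ctrl. Its control counts lay above the floor of 3 counts, and HT exceeded Ctrl by 2.50 times (1.20 to 5.52). Cngb1 encodes the beta subunit of the rod cyclic nucleotide-gated channel and, as a shorter isoform, a subunit of the channel of olfactory sensory neurons. On chromosome 8 from 95239045 to 95306585 on the minus strand, it had 891 counts in cKO, 87 in HT and 25 in Ctrl, or 36.8, 4.42 and 0.972 CPM. The 3 libraries thus formed a graded order for Cngb1. The ratio of cKO was 8.33 (6.68 to 10.5) to HT and 37.9 (25.5 to 58.9) to Ctrl, so the choice of control moved it by more than 4 times. The counts are per gene, so the isoforms of Cngb1 could not be separated.

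Prph2 encodes peripherin-2 and Rom1 its homologue, and together they form the complexes at the disc rims. Prph2, on chromosome 17 from 46910459 to 46924933 on the plus strand, had 2509 counts in cKO, 2 in HT and 2 in Ctrl. The ratio was 1021 (282 to 8434) to HT and 1334 (369 to 11020) to Ctrl, and no ratio is given between the controls because both were under the floor. Rom1, on chromosome 19 from 8927391 to 8929356 on the minus strand, had 1494 counts in cKO, 217 in HT and 261 in Ctrl, or 61.7, 11.0 and 10.1 CPM. It was the one gene of the 7 with over 100 counts in each control, and its ratio was 5.60 (4.86 to 6.49) to HT and 6.09 (5.33 to 6.97) to Ctrl. Per kb of exon, Prph2 was at 0.849 times the level of Rom1 in cKO (0.796 to 0.905) but at 0.00466 times in HT and 0.00387 times in Ctrl. The partners of 1 complex were thus at similar levels in cKO and far apart in the controls.

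**Figure D1:**
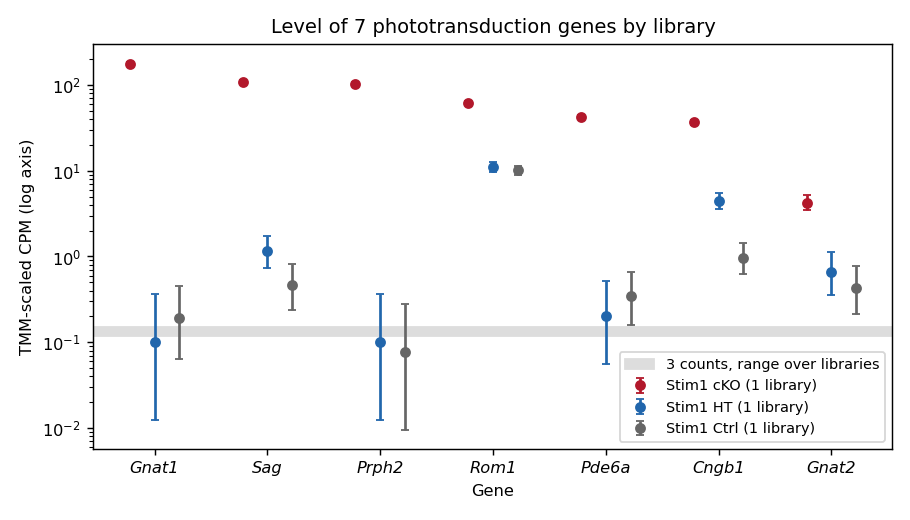
Level of each of the 7 genes in each library, as TMM-scaled CPM on a log axis, with exact 95% Poisson intervals for counting error and 1 library per genotype. The grey band marks 3 counts. The cKO points lie above both controls for every gene, and in the controls only Rom1 lies at or above 10 CPM.

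Promoter sequence was read for Sag, Cngb1 and Rom1, because these 3 differ in how far the controls lay above 0 and the stretches printed overlap no annotated exon. The stretches are the 100 bases before the RefSeq start site on GRCm38.p6, written 5′ to 3′ on the gene's strand. Capitals mark TAATCC, the core letters bound by CRX-type homeodomain factors, on either strand (GGATTA on the other) in Sag and Cngb1, and GGGCGG, the GC box, in Rom1.
Sag, chr1:87803580-87803679 plus strand: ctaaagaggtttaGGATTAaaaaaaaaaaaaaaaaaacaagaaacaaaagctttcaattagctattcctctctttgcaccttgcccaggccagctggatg
Cngb1, chr8:95306586-95306685 minus strand: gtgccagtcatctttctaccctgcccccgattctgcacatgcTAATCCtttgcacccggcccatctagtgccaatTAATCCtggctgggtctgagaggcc
Rom1, chr19:8929357-8929456 minus strand: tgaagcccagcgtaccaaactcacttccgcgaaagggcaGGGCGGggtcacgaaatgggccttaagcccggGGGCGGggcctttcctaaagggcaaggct

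In windows from 250 bases before to 50 after the start site, TAATCC was found on either strand in 3 of the 5 genes that have a RefSeq promoter entry: Sag from -87 to -82, Gnat2 from -19 to -14, and Cngb1 from -58 to -53 and from -25 to -20. The share over all 14011 listed genes with an entry was 7.39%. Among 40 other genes of the photoreceptor pathway with an entry, 15 (37.5%) held TAATCC. The GC box GGGCGG showed the opposite order, at 60.9% of all genes, 13 of 40 pathway genes (32.5%) and, of the 5, Rom1 alone, from -61 to -56 and from -29 to -24. TGCTGA, the core of the NRL response element, was in Sag only, in 13 of 40 pathway genes and in 19.9% of all. TATAAA was in Sag only, in 11 of 40 pathway genes (27.5%) and in 10.5% of all. TAATTA, another homeodomain core, was in 0 of the 5, in 3 of 40 pathway genes and in 3.90% of all. Prph2, with 2 counts in each control, has an entry but held none of these motifs. No relation between motifs and control counts was tested. A match describes letters in a window and not a bound site, and both strands were searched for each motif.

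All 7 genes were over 2-fold higher in cKO than in both controls, with 0 lower, where 19.1% of the 18702 genes tested were higher and 8.16% lower. This count follows from the way the genes were selected. Over the 7, the log2 ratio of cKO to the mean of both controls, with control counts under 3 set to 3, had a median of 7.05, against -0.0099 over all genes tested. The values spanned a wide range. Gnat1 stood highest, above Prph2 at 9.59, Pde6a at 7.26, Sag at 7.05, Cngb1 at 3.77, Gnat2 at 2.97 and Rom1 at 2.54. The lowest of the 7 were Rom1 and Gnat2. Slc24a1, left out by rule, had 781, 5 and 6 counts in cKO, HT and Ctrl. The other genes with a cKO count within 10% of that of Gnat1 numbered 201, and their median level in the controls was 104% (HT) and 107% (Ctrl) of that in cKO. By the higher control percent, 0 of the 201 lay at or below Gnat1. The same number was 39 of 445 like genes for Gnat2, 22 of 757 for Rom1 and 14 of 936 for Cngb1. It was 2 of 921 for Pde6a and 0 for Sag and Prph2. These numbers are a description, since the genes were chosen with this contrast known.

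The contrast of HT with Ctrl was not used to choose the genes. Of the 7, 2 were over 2-fold higher in HT, Cngb1 at 4.55 times (2.89 to 7.41) and Sag at 2.50 times, and 0 were over 2-fold lower. Over all genes tested, 9.16% were higher and 3.18% lower by this measure. Rom1 did not reach 2-fold, at 1.09 times (0.903 to 1.31). That interval includes equal levels and covers counting error only, at the TMM factors used. For Gnat2 the ratio was 1.54 (0.638 to 3.81), for Pde6a 0.581 (0.131 to 2.08) and for Gnat1 0.523 (0.0498 to 3.19). For these 3 genes, a difference between the controls was not detectable at this depth.

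**Figure D2:**
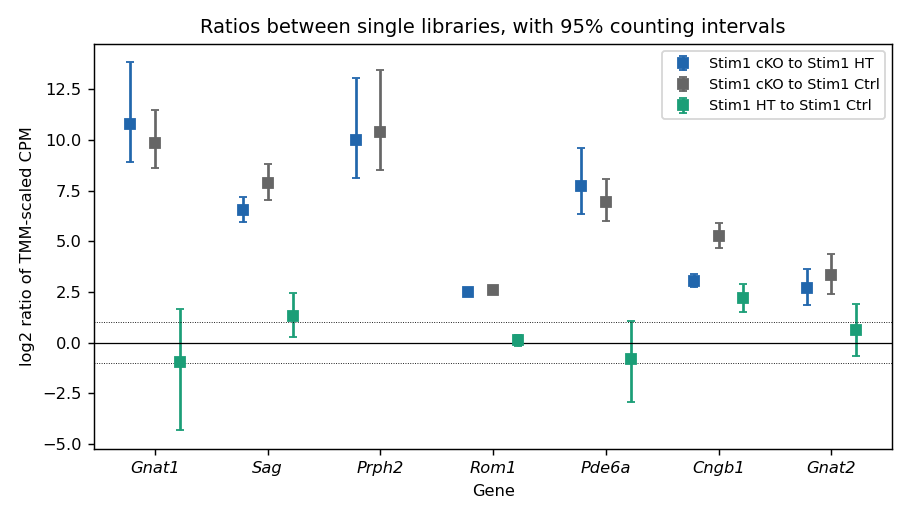
log2 ratios of TMM-scaled CPM between pairs of single libraries for each gene, with conditional exact 95% counting intervals. Dotted lines mark 2-fold, and the ratio of HT to Ctrl is left out for Prph2, which had 2 counts in each. The cKO ratios lie above 2-fold for each gene, and Cngb1 is the gene whose HT to Ctrl interval lies wholly above 2-fold.

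The make-up of the phototransduction counts differed between libraries. The 7 genes summed to 12944 counts in cKO, 348 in HT and 325 in Ctrl. Gnat1 took 33.2% of them in cKO (95% Wilson interval 32.4 to 34.0), 0.575% in HT and 1.54% in Ctrl. Rom1 took 11.5% in cKO (11.0 to 12.1), 62.4% in HT (57.2 to 67.3) and 80.3% in Ctrl (75.6 to 84.3). The rod transducin gene thus led in cKO, and the disc rim gene Rom1 led in both controls. Cngb1 took 6.88% in cKO (6.46 to 7.33), 25.0% in HT (20.7 to 29.8) and 7.69% in Ctrl (5.26 to 11.1). HT was the library with the high Cngb1 share, and the intervals of the other two libraries overlapped. Per kb of exon, Gnat1 made up 36.5%, Rom1 25.4% and Prph2 21.5% of the summed level in cKO, and Rom1 made up 88.6% in HT and 93.5% in Ctrl. The share of Sag in cKO was 20.3% of counts and 7.60% per kb, and that of Cngb1 was 2.45% in cKO, 5.76% in HT and 1.45% in Ctrl per kb. The lengths used, 8904 bases for Sag and 9355 for Cngb1, are unions of all annotated exons. Where the transcripts present are shorter, the per kb values are too low.

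**Figure D3:**
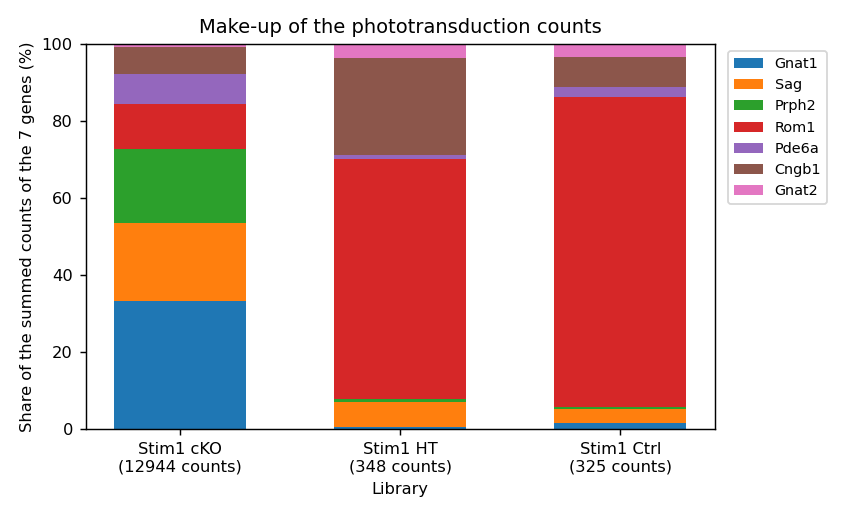
Share of each gene in the summed counts of the 7 genes, in percent, with 1 stacked bar per library and the summed count under each bar. Rom1 fills 62.4% and 80.3% of the control bars and 11.5% of the cKO bar, where Gnat1, Sag and Prph2 are the largest shares.

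The rest of the pathway was described with 5 lists of photoreceptor genes that hold none of the 7. They name 62 genes, of which 47 were listed and tested. Of the 47, 37 were over 2-fold higher in cKO than in both controls, 0 were lower and 10 were neither. Over all genes tested, 19.1% were higher and 8.16% lower. The median log2 ratio of the 47 to the mean of both controls was 2.97. The edgeR quasi-likelihood test of cKO against the grouped controls called 3 of the 47 at an adjusted p under 0.01 and a fold over 2, where it called 14 (0.0749%) of all genes tested as higher. DESeq2, the tool named in the methods, called 28 of the 47, where it called 5.92% of all genes as higher. These tests take their spread from HT and Ctrl alone, 2 libraries of unlike genotype. The filter passes a gene with enough reads in a single library, so genes with few control reads entered through cKO alone. The lists were chosen with earlier results of these data known, so the calls are a description and not independent evidence. Neither tool called a pathway gene as lower. At an unadjusted p under 0.05 in edgeR's test, 37 of the 47 were higher and 0 lower, where 18.5% of all genes tested were higher and 13.4% lower.

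Among 13 rod transduction genes, 8 were over 2-fold higher in cKO, where 19.1% of all genes tested were. The 2 that passed edgeR's test were Pdc, which encodes phosducin, the partner of transducin beta-gamma, and Pde6g, which encodes the inhibitory subunit of PDE6. Pdc had 1828 counts in cKO, 1 in HT and 2 in Ctrl, and its log2 fold change was 10.05 (edgeR, adjusted p 0.00351). Pde6g had 1107, 5 and 5 counts in the same order, and its log2 fold change was 7.66 (edgeR, adjusted p 0.00890). Both were thus at a few reads in the controls, as Gnat1 and Pde6a were, and both passed the filter through cKO alone. Grk1, the kinase of activated opsin, had 871, 1 and 4 counts and missed the threshold (adjusted p 0.0115, edgeR). It too passed the filter through cKO alone. The retinal guanylate cyclases that restore cyclic GMP, Gucy2e and Gucy2f, had 347, 6 and 4 counts and 135, 1 and 3 counts, and their activator Guca1b had 397, 8 and 5. Rgs9 and its anchor Rgs9bp, which speed the shut-off of transducin, had more reads in the controls, with 417, 44 and 56 counts and 295, 27 and 57 counts. The 5 genes that did not reach 2-fold against both controls included Gnb1, the transducin beta subunit that many cells use, at 569, 388 and 340 CPM. They also included Gnb5, with 519, 436 and 502 counts, Pde6d with 868, 781 and 828, and Unc119, a carrier of lipid-modified transducin, with 1273, 605 and 568. The fifth, Guca1a, had 84, 77 and 44 counts. Against Ctrl alone, Unc119 (2.383 times, 2.156 to 2.635) and Guca1a (2.029 times, 1.393 to 2.993) were over 2-fold higher in cKO.

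The cone transduction list names 10 genes, of which Opn1mw, Pde6c, Cngb3 and Arr3 were not listed. Among the 6 tested, 4 were over 2-fold higher, where 19.1% of all genes tested were, and 0 passed edgeR's test. At an unadjusted p under 0.05 in that test, 4 were higher, where 18.5% of all genes were. DESeq2 called 2, where it called 5.92% of all genes as higher. Cnga3, the cone channel subunit, had 43 counts in cKO, 6 in HT and 7 in Ctrl. Opn1sw, the short-wavelength cone opsin, had 81, 10 and 11 counts, and Pde6h, the inhibitory subunit of cone PDE6, had 111, 4 and 3. The listed cone genes with few control reads were thus also of low count in cKO, as Gnat2 was. The exons of Opn1sw overlap those of Calu on the opposite strand and those of Pde6h overlap Arhgdib, so these counts are uncertain where strand was not used. Slc24a2, the cone exchanger, had 692, 165 and 143 counts. Gnb3 had 270, 121 and 59 counts and was below 2-fold against HT. Gngt2, which overlaps Abi3, had 276, 238 and 170.

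All 13 tested genes of the outer segment and cilium list were over 2-fold higher in cKO, where 19.1% of all genes tested were. Their median log2 ratio was 4.18. Rp1, which encodes a microtubule protein of the photoreceptor axoneme, had 1757 counts in cKO against 7 in HT and 5 in Ctrl (log2 fold change 8.06, adjusted p 0.00787, edgeR). Rp1 passed the filter through cKO alone, a single library, so this call is a description. Impg2, of the matrix between photoreceptors, had 919, 7 and 11 counts. Tulp1 had 771, 44 and 33 counts and Cdhr1, a cadherin at the base of the outer segment, had 1700, 159 and 83. Prom1, which shapes nascent discs and is used by many epithelia, had 2217, 374 and 229, with exons that overlap the antisense gene Gm16401. Like the disc rim genes Prph2 and Rom1, members of this list differed widely in their control reads. DESeq2 called 11 of the 13, where it called 5.92% of all genes as higher.

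Of 8 listed photoreceptor transcription factors, 7 were over 2-fold higher, where 19.1% of all genes tested were, and 0 passed edgeR's test. At an unadjusted p under 0.05 in that test, 7 were higher, where 18.5% of all genes were. DESeq2 called 4, where it called 5.92% of all genes as higher. Nrl, the factor that sets rod fate, had 1102, 4 and 2 counts (adjusted p 0.0113, edgeR), and Nr2e3, its target that represses cone genes, had 655, 1 and 3 (adjusted p 0.0115, edgeR). Both of the rod-defining factors thus had 4 or fewer reads in each control, and both passed the filter through cKO alone. Rorb had 445, 14 and 12 counts. Neurod1, a factor shared with other neurons and endocrine cells, was graded as Cngb1 was, with 764 counts in cKO, 55 in HT and 7 in Ctrl. The exons of Neurod1 overlap those of Cerkl on the same strand and those of Nr2e3 overlap Gm15507, so reads in the shared bases are uncertain. Prdm1, which is also used outside the retina, was the gene below 2-fold, with 425, 191 and 281 counts. Of 7 visual cycle genes, 5 were over 2-fold higher and 0 passed edgeR's test, 5 were higher at an unadjusted p under 0.05 and DESeq2 called 3. The shares over all genes are those given for the transcription factors. Abca4, the retinoid flippase of the disc, had 668, 103 and 126 counts. Rlbp1, a retinaldehyde carrier, had 327, 24 and 25.

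Paralogs used outside photoreceptors were set beside the phototransduction genes. Of 18 tested, 8 were over 2-fold higher in cKO and 0 lower, where 19.1% of all genes tested were higher and 8.16% lower. Their median log2 ratio was 1.08, against 2.97 for the 47 pathway genes and 7.05 for the 7 genes. The 7 genes were chosen with this contrast known, and no test was made of these differences. The inhibitory G protein alpha subunits nearest to transducin, Gnai1, Gnai2 and Gnai3, were at 51.9, 354 and 73.1 CPM in cKO. They were at 48.5, 445 and 132 CPM in HT and at 51.7, 438 and 158 CPM in Ctrl. None of these 3 was over 2-fold higher or lower than in both controls, in contrast to Gnat1 and Gnat2. The widely used arrestins Arrb1 and Arrb2 were at 62.8 and 36.0 CPM in cKO, 77.1 and 27.3 CPM in HT, and Arrb1 was at 96.7 CPM in Ctrl. Arrb1 was lower in cKO than in both controls and Arrb2, with 871, 538 and 514 counts, was higher, each by less than 2-fold. Other paralogs exceeded 2-fold, such as Gnaz, of neurons and platelets, with 1040, 80 and 86 counts. Gnaq had 10701, 2257 and 3071 counts, and Hpca, a calcium sensor of the recoverin family whose exons overlap those of Tmem54, had 413, 67 and 82.

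**Figure D4:**
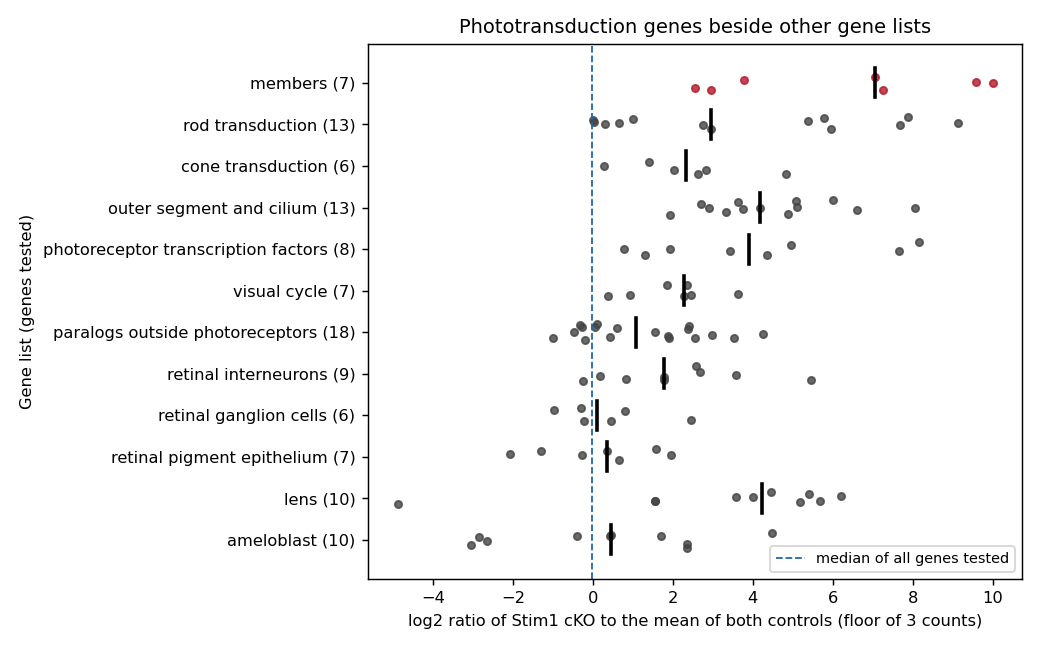
log2 ratio of cKO to the mean of both controls for each tested gene, with a floor of 3 counts, by gene list. Each point is 1 gene, the black bar is the median of the list, and the dashed line is the median of all genes tested, at -0.0099. The 7 selected genes (red) have a median of 7.05, and the lens list has one of 4.23.

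Markers of other cells of the eye were read in the same libraries. Over all genes tested, 19.1% were over 2-fold higher in cKO than in both controls and 8.16% lower. Of 10 tested lens genes, 9 were over 2-fold higher in cKO and 1, Gja3, was lower, and their summed level was 340 CPM in cKO, 26.1 CPM in HT and 23.7 CPM in Ctrl. Cryaa, the lens alpha-crystallin, had 4036, 86 and 89 counts, with exons that overlap an antisense gene. The lens list thus moved with the phototransduction genes, whose summed level was 535, 17.7 and 12.6 CPM in the same order. Of 9 tested genes of retinal interneurons, 6 were over 2-fold higher and 3 were neither, with summed levels of 138, 46.8 and 59.4 CPM. Those 3 were Lhx3 with 21, 38 and 1 counts, Slc6a9 with 736, 290 and 495, and Prox1 with 346, 239 and 338. Their exons overlap those of other genes. Grm6, the glutamate receptor of ON bipolar cells, had 143, 2 and 1 counts, though its exons overlap those of an antisense gene. Of 6 retinal ganglion cell genes, 1 (Pou4f2, with 29, 4 and 6 counts) was over 2-fold higher, near the share of 19.1% over all genes, and the summed level was 59.1, 55.7 and 53.3 CPM. Of 7 tested genes of the retinal pigment epithelium, 2 (Ttr and Stra6) were over 2-fold higher, also near that share, and the 10 listed summed to 44.2, 24.6 and 33.2 CPM. Of the 3 tested cornea genes, Aldh3a1 had 6447, 217 and 331 counts, Kera had 98, 1238 and 2780, and Pax6 had 843, 60 and 416. Krt12, the keratin that defines corneal epithelium, had 7, 1 and 3 counts. Of 5 pineal gland genes, 1 was listed, Tph1, with 10, 7 and 14 counts. The part of cells other than ameloblasts in the phototransduction counts was not tested.

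The graded order of Cngb1 was read beside genes of olfactory transduction, a list chosen after values were seen. Of its 8 listed genes, 7 were over 2-fold higher in HT than in Ctrl, where 9.16% of all genes were. Cnga2 and Cnga4 encode the olfactory channel subunits that pair with the product of Cngb1. Cnga2 had 618 counts in cKO, 269 in HT and 8 in Ctrl, and Cnga4 had 256, 69 and 1. Omp, the olfactory marker protein, had 5359, 2065 and 16. These genes were high in cKO and HT and near the limit of detection in Ctrl. Per kb of exon, Cngb1 was at 0.107 times the level of Cnga2 in HT (0.0830 to 0.137), 0.477 times in cKO (0.430 to 0.529) and 1.03 times in Ctrl (0.452 to 2.65). By this per kb measure, Cngb1 was below Cnga2 in HT and cKO, whereas in Ctrl the interval included equal levels. In counts not divided by length, the ratios were 0.323 in HT, 1.44 in cKO (1.30 to 1.60) and 3.13 in Ctrl (1.37 to 8.02). Only in HT was Cngb1 below Cnga2 by both measures, so the order in cKO depended on the exon lengths used. Gnal, the olfactory G protein alpha subunit, had 2457, 815 and 187 counts, and Adcy3, the olfactory adenylyl cyclase, had 1442, 1201 and 1395. Their exons overlap those of Mppe1 and Cenpo. The share of the Cngb1 counts that belongs to olfactory cells was not tested.

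**Figure D5:**
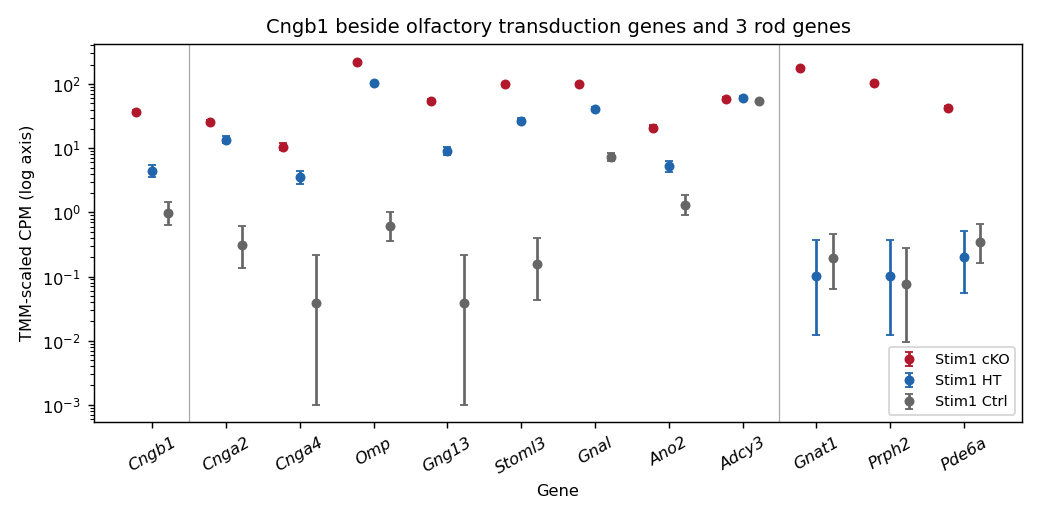
Level of Cngb1 beside 8 olfactory transduction genes and 3 rod genes in each library, as TMM-scaled CPM on a log axis with exact 95% Poisson intervals. Cngb1 and 7 olfactory genes, all but Adcy3, are over 2-fold higher in HT than in Ctrl, while Gnat1, Prph2 and Pde6a lie below 1 CPM in both.

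The genes most alike to the 7 in pattern were taken as the 10 with the smallest distance to their median log2 ratios (6.42 for cKO to HT and 0.18 for HT to Ctrl, after adding 0.1 CPM), over 3 libraries and 14970 genes whose mean count was 50 or more. In order they were Cplx3, Slc24a1, Gm37444, Gm26871, Impg2, Lhx9, Crybb3, 2900022M07Rik, Grin2b and Gm37928, at distances of 0.0926 to 0.524 on the log2 scale. Cplx3, a complexin of ribbon synapses, had 296 counts in cKO, 1 in HT and 1 in Ctrl. Crybb3, a lens beta-crystallin, had 1380, 16 and 19. Grin2b, a glutamate receptor subunit of the brain, had 3299, 42 and 46. Likeness over 3 libraries is coarse, since most of the 10 had 1 to 5 counts in each control, where depth and the CPM added set the ratio of HT to Ctrl. With 1 CPM added, 3 of the 10 genes were the same.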

How the data were processed

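RNA of the incisor enamel organ was sequenced as paired-end reads in 3 libraries, 1 per genotype. The authors trimmed the reads, used STAR to align them to mouse, and deposited counts per gene symbol with no normalization. The build, annotation, counting tool and strand setting are not given in the sources used here. The methods name a directional NEBNext kit and the labels a SMARTER kit. In 25 rows, with 0.154% of the counts, a date stood in place of the symbol, and these rows stayed in the tests.

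Counts were scaled by TMM (factors 1.13, 0.975 and 0.911 for Stim1 cKO, HT and Ctrl). The total counts were 21496136, 20216507 and 28265960 in that order. Ratios between single libraries carry exact conditional 95% intervals and shares carry Wilson intervals, which cover counting error only. cKO was tested against the grouped controls, the grouping that the study describes, with edgeR 4.0.16 (R 4.3.3, quasi-likelihood test, filterByExpr, Benjamini-Hochberg adjustment over 18702 genes), and DESeq2 1.42.0 was an alternative. An adjusted p that DESeq2 left out was not counted as a call. The edgeR script was run on simulated data in which 200 genes with higher counts were changed. That setting differs from genes with few control reads, so it does not vouch for the calls given here. Exon lengths and positions came from GENCODE M21 (GRCm38), where 0 of the 7 genes shared exonic bases with another gene. The exon length of a gene is the union of all its annotated exons, which can exceed the length of any single transcript. Promoters came from RefSeq (GRCm38.p6), and Gnat1 and Pde6a had no entry. Tables were made in Python 3.11.15 (scipy 1.17.1, numpy 2.4.6, pandas 2.3.3).

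The genes, the lists and the tests were chosen with earlier results of these data known. Genes named were the 7 listed genes, Stim1, genes of the lists, and the 10 nearest in pattern. The olfactory list was added after values were seen. A gene of the lists is not reported here. Alternatives were other scalings, no filter, another fold, adjusted p, pseudocount or tool, and leaving out either control.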

Additional observations from a re-analysis of the deposited data

How the results depend on the processing

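All 7 phototransduction genes were over 2-fold higher in cKO than in each control under each scaling, without the filter and without either control. The number of pathway genes past 2-fold was 37, also with RLE factors, upper-quartile factors and no filter, and 39 with library size alone. It was 31 at 4-fold. Leaving out a control gave 38 to 40, and it can only raise the number because the rule then asks for 1 control. The median log2 ratio of the 7 genes, 7.05, was 6.54 to 6.92 when a control was left out and 5.09 with 1 CPM added, which by construction draws in low control levels. Leaving out HT moved Cngb1 from 3.77 to 5.24 and leaving out Ctrl moved it to 3.06. edgeR called 3 pathway genes, and the number was 7 with RLE factors, 7 with upper-quartile factors, 23 with no filter, 26 at an adjusted p under 0.05 and 28 with DESeq2. The number over all genes at an adjusted p under 0.05 is not given here, so the 26 cannot be set against a share. Over all genes, edgeR called 14 as higher and 0 as lower (5961 at an unadjusted p under 0.05), against 50 and 0 with RLE, 125 and 13 with upper-quartile factors, 687 and 220 with no filter, and 1107 and 880 with DESeq2. The cause of these differences was not tested. Scaling by library size alone moved the median log2 ratio of all genes to 0.25, and upper-quartile factors to 0.12. Among genes past 2-fold, 70.1% were higher with TMM and 81.3% with library size alone. The share of Gnat1 in cKO was 33.2% of counts and 36.5% per kb of exon, while Sag in cKO went from 20.3% to 7.60%, Rom1 in cKO from 11.5% to 25.4% and Cngb1 in HT from 25.0% to 5.76%. The ratio in cKO crossed 1 for Cngb1 to Cnga2 (1.44 in counts, 0.477 per kb) and for Prph2 to Rom1 (1.68 and 0.849). No ratio of cKO to the controls among the 7 genes changed direction under the other scalings, filter, pseudocount or left-out control. No value came from edgeR without HT or without Ctrl, since 1 library against 1 leaves no residual degrees of freedom. No paired analysis was possible because each genotype has 1 library and the groups share a single replicate number. With 2 to 5 control counts for Gnat1 and Prph2, depth limits the size of their ratios but not their direction.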

Other observations

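The 3 genes most alike in pattern that carry provisional names, Gm37444, Gm26871 and Gm37928, had 465, 383 and 391 counts in cKO, 3, 1 and 3 in HT, and 3, 1 and 2 in Ctrl. Mak, a kinase of the photoreceptor cilium that also acts in the testis, was graded, with 329 counts in cKO, 45 in HT and 11 in Ctrl. Fscn2, an actin-bundling protein of photoreceptors and hair cells, had 51, 18 and 5 counts in the same order. Tyrp1, a pigment cell enzyme, went the other way between the controls, with 19, 14 and 151 counts.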
